A study of Homo sapiens with 12 samples.

Results

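Cyclin E1 (CCNE1), cyclin E2 (CCNE2) and the phosphatase CDC25A drive the passage of cells from G1 into S phase, and their transcripts were followed in 3 colorectal cancer cell lines with and without the MDM2 inhibitor Nutlin-3a. The 3 genes were chosen by their symbols, with earlier results of these data in view. Each symbol was paired with 1 probe set of the deposited value table, so that 3 of the 14118 genes measured are described here. The established lines HCT116, SW48 and RKO, all labelled p53 WT, were each left untreated or given 10 µM Nutlin-3a for 8 h. Nutlin-3a occupies the p53 pocket of MDM2, the ligase that otherwise marks p53 for destruction, and p53 then accumulates. RNA of each sample was read on 1 Affymetrix Human Gene 2.0 ST array, which gave 6 groups of 2 arrays and 12 arrays in all. The labels number the arrays of a group as replicates and do not mention separate cultures. The p-values therefore reflect only how far these samples spread, and that spread may be technical.

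Cyclins E1 and E2 bind the kinase CDK2 and activate it late in G1. CDC25A removes inhibitory phosphates from CDK2, so the 3 products act on the same kinase. Active CDK2 adds to the phosphorylation of RB, which releases E2F transcription factors, and the genes of cyclin E and of CDC25A are themselves known E2F targets. p53 is known to act against this loop through p21, an inhibitor of CDK2, after which RB-family proteins and E2F repressors hold such genes down. These arrays read transcripts only, not protein or kinase activity.

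The proximal promoters of CCNE1 and CDC25A are shown because E2F and the general promoter elements act close to the start site, and because both transcripts fell. The sequences are the 250 bases before the start of each gene in RefSeq, build GRCh38.p14, written 5′ to 3′ on the strand of the gene. CCNE1 lies on the plus strand, with its window at chr19:29811741-29811990, and CDC25A on the minus strand, with its window at chr3:48188418-48188667. The table of promoters matched 2 of the 3 genes. Capitals mark letters that match 1 of the motifs searched, on either strand.
CCNE1 promoter: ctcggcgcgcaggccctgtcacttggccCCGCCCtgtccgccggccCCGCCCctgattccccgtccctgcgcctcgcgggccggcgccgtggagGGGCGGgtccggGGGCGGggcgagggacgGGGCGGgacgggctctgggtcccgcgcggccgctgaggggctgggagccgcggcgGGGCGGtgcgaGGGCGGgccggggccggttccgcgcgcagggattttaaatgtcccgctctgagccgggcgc
CDC25A promoter: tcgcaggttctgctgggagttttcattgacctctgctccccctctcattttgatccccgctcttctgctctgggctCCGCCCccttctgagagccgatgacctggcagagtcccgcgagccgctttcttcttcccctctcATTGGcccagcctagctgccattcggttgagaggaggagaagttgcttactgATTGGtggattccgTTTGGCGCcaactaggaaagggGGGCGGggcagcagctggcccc

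The motifs were an E2F site (TTTCCCGC, TTTCGCGC, TTTGCCGC or TTTGGCGC), the CCAAT box (CCAAT), the GC box (GGGCGG) and the E-box that MYC can bind (CACGTG), each searched on both strands. No matches shared a base in these windows. The CDC25A window held TTTGGCGC from -44 to -37, counted back from the start site. It also held CCAAT on the opposite strand at -110 to -106 and at -58 to -54, and GC boxes at -174 to -169 and -22 to -17. The CCNE1 window held 7 GC boxes, between -222 and -56, and no match to the other motifs. Its GC content was 81.2%, against 60.0% in the CDC25A window. Of all 27305 promoters of the same length, 2.79% held the E2F letters, 33.0% the CCAAT box, 42.3% the GC box and 6.49% the E-box. A match describes letters and not a bound site, and the absence of one says only that these letters are not in the window.

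The microRNAs shown next were picked because they have been linked to these transcripts, miR-34a to CCNE2, miR-16 to CCNE1 and let-7 to CDC25A. Their mature sequences come from RefSeq, build GRCh38.p14, with the seed (bases 2 to 8) in capitals, and the 3 seeds differ from each other. They lie at chr1:9151735-9151756 (minus strand), chr13:50049027-50049048 (minus strand) and chr9:94176353-94176374 (plus strand), in the order given.
hsa-miR-34a-5p: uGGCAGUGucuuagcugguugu
hsa-miR-16-5p: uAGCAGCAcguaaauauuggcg
hsa-let-7f-5p: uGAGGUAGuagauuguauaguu

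Array medians lay between 4.97 and 5.05 on the deposited log2 scale, and no value of the 3 genes lay below 8.11. Colon epithelium markers were measured for 10 of 12 genes, of which 8 lay above the array median in HCT116, 9 in SW48 and 7 in RKO. EPCAM, an epithelial surface protein, averaged 11.02 in untreated HCT116 and 11.12 in untreated SW48 but 6.03 in untreated RKO, where the highest colon marker, CDX2, averaged 7.52. The labels' extraction text speaks of thyroids and the growth text names only HCT116. Of 10 thyroid markers 6 were measured, none averaged above 6.24 in any group, and thyroglobulin (TG) averaged 5.08 to 5.27. Of these 6, 4 lay above the array median in untreated HCT116 and untreated SW48 and 3 in each other group. Of 4 immune cell markers measured, 2 lay above it in every group, so such a count alone says little about cell type. In each line all 10 measured genes of a list of 16 p53 targets rose with Nutlin-3a, among them TP53INP1, GDF15 and SESN1. In RKO 7 or more of the 10 were called under every alternative tried.

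Nutlin-3a lowered all 3 transcripts in all 3 lines. CCNE1 changed by -46.3% in HCT116, -36.9% in SW48 and -27.8% in RKO. CCNE2 changed by -43.3%, -47.9% and -23.5% in the same order of lines, and CDC25A by -43.9%, -34.2% and -23.2%. Within each line no treated array overlapped an untreated one for any of the 3 genes. With 2 arrays against 2 this can also arise without an effect, and the share of all genes separated so was not computed. Percentages assume that the deposited logarithms have base 2, which was read from the range of the values. Levels were compared between groups for 1 gene at a time, never between genes.

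**Figure D1:**
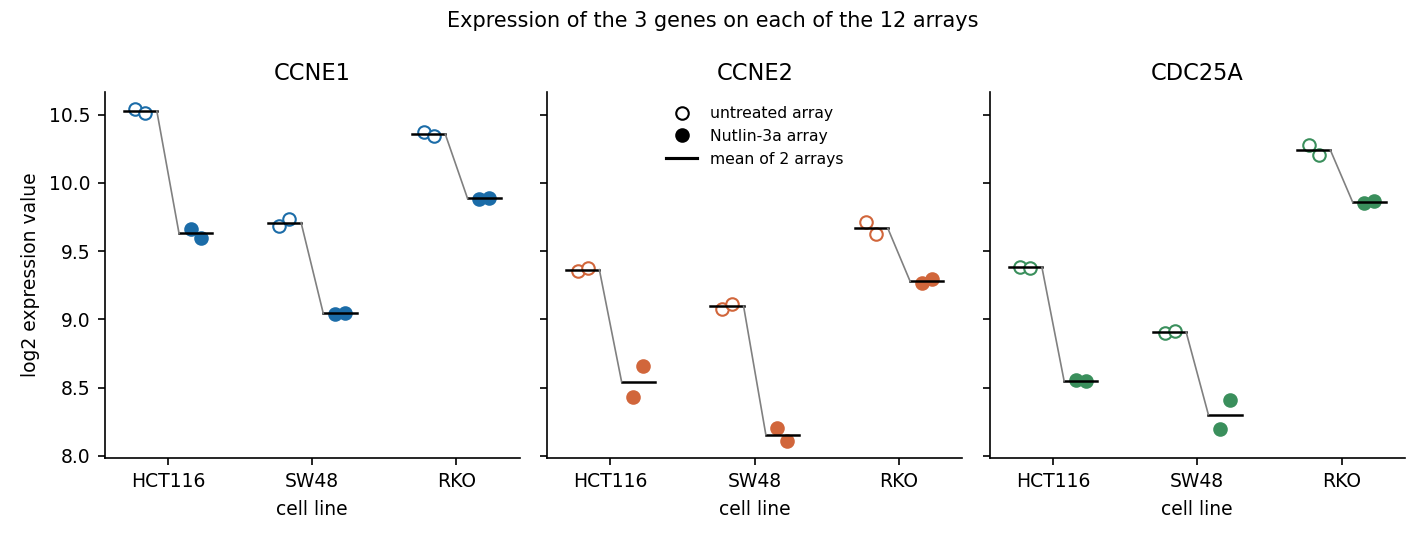
Deposited log2 level of CCNE1, CCNE2 and CDC25A (vertical axis) in each of the 12 arrays, grouped on the horizontal axis by line and treatment; open points are untreated and filled points Nutlin-3a arrays, bars are group means (n = 2), and grey lines join the means of a line. In each line both Nutlin-3a arrays lie below both untreated arrays, and the levels of different genes are not comparable. The share of all genes separated in this way was not computed.

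CCNE1 encodes the first of the E cyclins. In HCT116 it read 10.55 and 10.51 on the untreated arrays and 9.66 and 9.60 on the treated arrays. In SW48 the untreated arrays read 9.68 and 9.74 and the treated arrays 9.04 and 9.05. In RKO the untreated arrays read 10.37 and 10.34 and the treated arrays both 9.89. The treated arrays were thus the lower ones in every line, with the widest gap in HCT116 and the narrowest in RKO. The fitted change (log2 ± SE, n = 2 arrays per group) was -0.90 ± 0.056 in HCT116, a level 1.86-fold lower, with a limma adjusted p of 2.02e-05. It was -0.67 ± 0.056 in SW48, 1.59-fold lower, with a limma adjusted p of 0.000136. In RKO the change was -0.47 ± 0.056, 1.39-fold lower, with a limma adjusted p of 0.00261. CCNE1 kept its call in each line whichever array was left out, and only in RKO did a fit on the 4 arrays of the line alone end it, at a limma adjusted p of 0.109.

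CCNE2 encodes the partner cyclin that also activates CDK2. In HCT116 it read 9.35 and 9.38 untreated and 8.43 and 8.66 treated. In SW48 the values were 9.08 and 9.11 untreated and 8.21 and 8.11 treated. In RKO they were 9.71 and 9.62 untreated and 9.27 and 9.29 treated. The treated arrays were again below the untreated ones in each line, and the treated HCT116 pair was the most spread of the 6 groups, with an SD of 0.158. The change was -0.82 ± 0.079 in HCT116, 1.77-fold lower, with a limma adjusted p of 0.000311. In SW48 it was -0.94 ± 0.079, 1.92-fold lower, with a limma adjusted p of 0.000136, and ranked 3rd among the lowest changes of all genes in that line. In RKO it was -0.39 ± 0.079, 1.31-fold lower, with a limma adjusted p of 0.0404. The RKO call was lost when any 1 of 10 arrays was left out (all but the treated HCT116 arrays), with changes between -0.43 and -0.34 and adjusted p up to 0.195, and with quantile normalization, at -0.35 and a limma adjusted p of 0.0512. In RKO fitted alone the limma adjusted p was 0.193, and over all probe sets it was 0.086.

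CDC25A encodes the phosphatase. In HCT116 it read 9.39 and 9.38 untreated and 8.55 on both treated arrays. In SW48 the untreated arrays read 8.90 and 8.91 and the treated arrays 8.19 and 8.41. In RKO the untreated arrays read 10.28 and 10.20 and the treated arrays 9.86 and 9.87. No treated array reached an untreated one of its line, although the treated RKO arrays lay above all arrays of HCT116 and SW48. The change was -0.83 ± 0.074 in HCT116, 1.78-fold lower, with a limma adjusted p of 0.000201. It was -0.60 ± 0.074 in SW48, 1.52-fold lower, with a limma adjusted p of 0.00182, and this call was lost in SW48 fitted alone, at 0.0579. In RKO it was -0.38 ± 0.074, 1.30-fold lower, with a limma adjusted p of 0.0322. The RKO call was lost when any 1 of 10 arrays was left out (all but the treated SW48 arrays), with changes between -0.42 and -0.34 and adjusted p up to 0.173. It was also lost over all probe sets, at a limma adjusted p of 0.0721, and in RKO fitted alone, at 0.193.

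Averaged over the lines, CCNE1 changed by -0.68 ± 0.032 (log2 ± SE), CCNE2 by -0.72 ± 0.046 and CDC25A by -0.61 ± 0.042. The limma adjusted p values were 1.24e-06, 9e-06 and 1.9e-05, and these 3 calls held when any 1 array was left out and under every other setting tried. Of all 14118 genes, 6.44% were called lower and 4.33% higher on average over the lines, with a median change of -0.01. By line, the genes called lower were 2.03% in HCT116, 1.74% in SW48 and 0.793% in RKO, and those called higher 3.08%, 1.38% and 1.23%. In HCT116 the higher calls made up 60.3% of calls, and 72.3% with arrays centred on their medians. Only 24 genes, 0.17%, were called lower in each of the 3 lines, and CCNE1, CCNE2 and CDC25A were 3 of them. That count was 3 to 13 when any 1 of the 12 arrays was left out, lowest without the first untreated or the second treated RKO array, and 0 with each line fitted alone. CCNE1 stayed among these genes without any 1 array, but CCNE2 and CDC25A each left them in 10 of the 12 cases. Other settings moved the set both ways. With quantile normalization it held 18 genes, CCNE1 and CDC25A but not CCNE2 among them. Over all probe sets it held 8 genes and at a threshold of 0.01 it held 2, and of the 3 genes only CCNE1 stayed in these. The set grew to 49 genes when those below the median signal were left out. It held 88 genes with a prior variance that followed intensity and was robust to outlying genes. All 3 genes were in both of these larger sets. Ranked from the lowest average change, CCNE2 stood 5th, CCNE1 7th and CDC25A 9th of all genes, a description since the genes were not chosen blind to it.

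**Figure D2:**
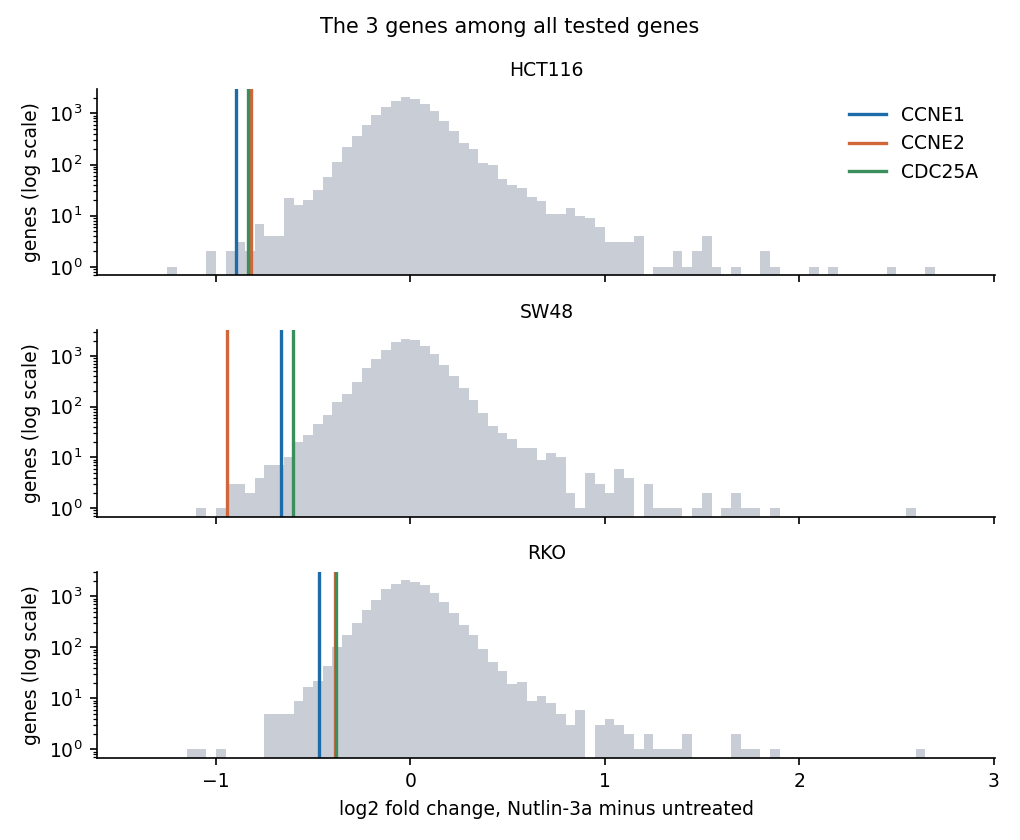
Change with Nutlin-3a (log2) of all 14118 genes in each line, with the 3 genes marked. CCNE1, CCNE2 and CDC25A lie in the low tail in every line, and in RKO the marks of CCNE2 (-0.39) and CDC25A (-0.38) nearly coincide.

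The size of the fall was then compared between lines. All 3 genes had their smallest change in RKO. The change in RKO minus that in HCT116 was 0.43 for CCNE1 (95% interval 0.25 to 0.60), 0.43 for CCNE2 (0.18 to 0.68) and 0.45 for CDC25A (0.22 to 0.69), with limma adjusted p of 0.0801, 0.183 and 0.142. RKO minus SW48 gave 0.19 for CCNE1 (0.02 to 0.37), 0.55 for CCNE2 (0.30 to 0.80) and 0.22 for CDC25A (-0.0081 to 0.46), with limma adjusted p of 0.427, 0.105 and 0.477. SW48 minus HCT116 gave 0.23 for CCNE1 (0.05 to 0.41), -0.12 for CCNE2 (-0.37 to 0.13) and 0.23 for CDC25A (-0.0044 to 0.46), with limma adjusted p of 0.249, 0.688 and 0.38. When any 1 array was left out, SW48 minus HCT116 ranged from -0.23 to -0.0087 for CCNE2 and from 0.12 to 0.34 for CDC25A, and RKO minus SW48 from 0.12 to 0.33 for CDC25A. None of these 9 differences was called after adjustment over all genes, which does not show that the lines respond alike. Such calls were rare at large, at 0.248%, 0.361% and 0.212% of genes for the 3 pairs of lines in that order.

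A joint limma F test of equal effects in the 3 lines gave adjusted p of 0.104 for CCNE1, 0.116 for CCNE2 and 0.177 for CDC25A, and called 0.503% of all genes. With a prior variance that followed intensity and was robust to outlying genes, the same test gave 0.00553, 0.0104 and 0.0323, so whether the lines are called different turned on that setting. Under it the RKO minus HCT116 difference was also called for CCNE1, at 0.00405, CDC25A, at 0.0225, and CCNE2, at a value under the threshold that rounds to 0.05, and the RKO minus SW48 difference for CCNE2, at 0.00854, all limma adjusted p. For CCNE1 the difference of RKO from HCT116 was called too when genes below the median signal were left out, at a limma adjusted p of 0.0402.

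**Figure D3:**
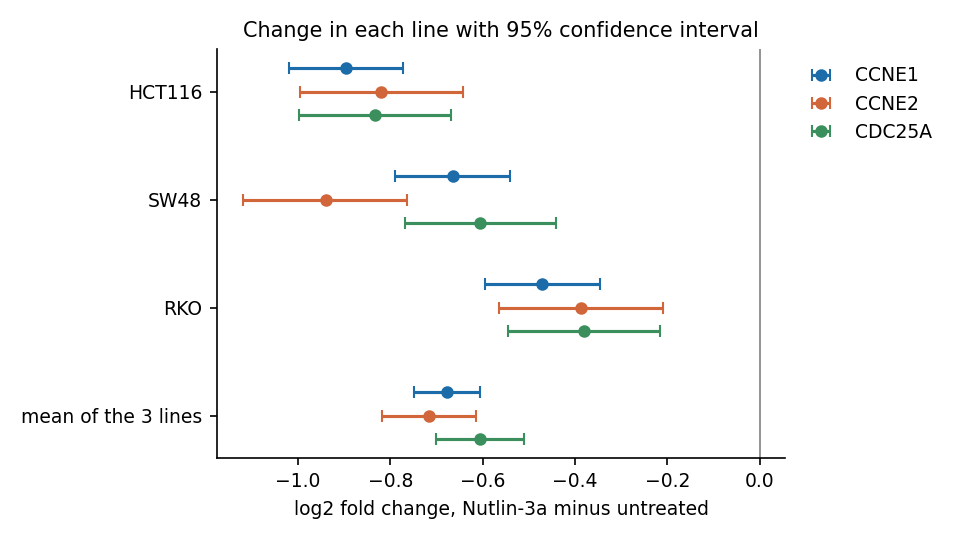
Change with Nutlin-3a (log2, horizontal axis) of the 3 genes in each line and on average over the lines, with 95% intervals from limma. All intervals lie below 0, and for each gene the RKO estimate is the one closest to 0.

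The lines also differed in the levels from which the genes fell. Untreated CCNE1 averaged 10.53 ± 0.025 (SD, n = 2) in HCT116, 10.36 ± 0.022 in RKO and 9.71 ± 0.039 in SW48. SW48 lay 0.82 below HCT116 (limma adjusted p = 1.08e-06) and 0.65 below RKO (limma adjusted p = 5.84e-06). RKO minus HCT116 was -0.17, with a limma adjusted p of 0.0329 that was lost without any 1 of the 4 arrays involved, at up to 0.146, and with arrays centred on their medians, at -0.13 and 0.115. With Nutlin-3a the order of the means of those 2 lines turned: RKO, at 9.89 ± 0.003, lay 0.26 above HCT116, at 9.63 ± 0.045 (limma adjusted p = 0.00401). The effect in RKO minus that in HCT116 was not called (limma adjusted p = 0.0801). SW48 stayed the lowest, at 9.04 ± 0.008, 0.59 below HCT116 (limma adjusted p = 1.25e-05) and 0.84 below RKO (limma adjusted p = 8.64e-07).

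Untreated CCNE2 averaged 9.67 ± 0.063 in RKO, 9.36 ± 0.018 in HCT116 and 9.10 ± 0.026 in SW48. RKO exceeded SW48 by 0.57 (limma adjusted p = 0.000176) and HCT116 by 0.30 (limma adjusted p = 0.011), and SW48 minus HCT116 was -0.27 (limma adjusted p = 0.018). The RKO call against HCT116 was lost without the first untreated array of either line, at up to 0.0746, and the SW48 call without any 1 of its 4 arrays, at up to 0.0841. With Nutlin-3a the range over the lines, from SW48 to RKO, went from 0.571 to 1.124. The effect in RKO minus that in SW48 was not called (limma adjusted p = 0.105). RKO, at 9.28 ± 0.020, then exceeded HCT116, at 8.55 ± 0.158, by 0.73 (limma adjusted p = 3.5e-05) and SW48, at 8.16 ± 0.069, by 1.12 (limma adjusted p = 1.31e-06). SW48 minus HCT116 was -0.39 (limma adjusted p = 0.00229).

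CDC25A differed most between the lines. Untreated RKO averaged 10.24 ± 0.054, HCT116 9.38 ± 0.003 and SW48 8.91 ± 0.010. RKO was 2.52-fold above SW48 (limma adjusted p = 2.16e-07) and 1.81-fold above HCT116 (limma adjusted p = 6.94e-06), and SW48 lay 0.48 below HCT116 on the log2 scale (limma adjusted p = 0.000377). With Nutlin-3a, RKO at 9.86 ± 0.008 was 2.95-fold above SW48 at 8.30 ± 0.155 (limma adjusted p = 6.82e-08) and 2.48-fold above HCT116 at 8.55 ± 0.005 (limma adjusted p = 2.98e-07). Treated SW48 minus HCT116 was -0.25, with a limma adjusted p of 0.019. This call was lost without either treated HCT116 array or the first treated SW48 array, which left -0.14 and 0.16. Differences between lines were common among all genes: 44.9% were called for untreated SW48 against HCT116, 41.5% for RKO against HCT116 and 44.7% for RKO against SW48, and 46.8%, 42.4% and 44.6% for the treated cells.

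Over all 6 groups, CCNE1 ran from untreated HCT116 down through untreated RKO, treated RKO, untreated SW48 and treated HCT116 to treated SW48. CCNE2 ran from untreated RKO through untreated HCT116, treated RKO, untreated SW48 and treated HCT116 to treated SW48. CDC25A ran from untreated RKO through treated RKO, untreated HCT116, untreated SW48 and treated HCT116 to treated SW48. Treated SW48 was the lowest group for all 3 genes, and arrays of neighbouring groups did not overlap in any of these orders. How many of all genes show such separate groups was not computed. The closest neighbours were untreated SW48 and treated HCT116 for CCNE1, whose means differed by 0.078 and whose nearest arrays by 0.019.

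The genes whose pattern was most like that of each transcript were found by the root mean square difference on the log2 scale, a description over 6 group means or 3 changes that share their arrays. Over the 6 group means, each gene centred on its own mean, CCNE1 was closest to MSH6 (0.078), a mismatch repair protein, EXO1 (0.119), an exonuclease of the same repair pathway, FBXO5 (0.132), an inhibitor of the anaphase-promoting complex, and TIPIN (0.140), a replication fork protein. CCNE2 was closest to the transcription factor E2F1 (0.134), then EXO1 (0.151), the checkpoint mediator CLSPN (0.158) and UHRF1 (0.189), a factor in DNA methylation upkeep. CDC25A was closest to JPH1 (0.172), a junctional membrane protein, the mitotic kinase MASTL (0.217), the methyltransferase NTMT1 (0.228) and the condensin subunit SMC2 (0.240). The median over all genes was 0.514, 0.534 and 0.702 for CCNE1, CCNE2 and CDC25A.

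Over the 3 changes alone, CCNE1 and CDC25A were each other's closest gene of all, at 0.073. CCNE2 was closest to MSH6 (0.058), whose changes were -0.76 in HCT116, -0.89 in SW48 and -0.45 in RKO, and next to MCM10 (0.113), CLSPN (0.144) and EXO1 (0.146). After CDC25A, CCNE1 was closest to JPH1 (0.120), TTPA (0.125) and E2F8 (0.141). After CCNE1, CDC25A was closest to TTPA (0.077), E2F2 (0.082) and JPH1 (0.096).

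Other genes of the pathway were counted from lists of known members, by their average change over the 3 lines, and each count stands beside the 6.44% of all genes that fell and the 4.33% that rose on that average. Of the other G1 and S phase cyclins and CDKs, 2 of 10 measured genes fell and 0 rose: CCNA2, the S phase cyclin, by 0.22 ± 0.032, and CDK2, the partner of cyclin E, by 0.14 ± 0.030 (limma adjusted p = 0.00194 and 0.0148). The median of the list was -0.001, beside -0.01 for all genes. Of the CDK inhibitors 1 of 7 was measured, CDKN2A, at -0.12 ± 0.047 (limma adjusted p = 0.137), and the others were not analysed here.

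Of the relatives of CDC25A and the kinases that oppose them, 3 of 6 fell and 0 rose. WEE1, the kinase that adds the inhibitory phosphate CDC25A removes, changed by -0.36 ± 0.039 (limma adjusted p = 0.000308), and CHEK1, which marks CDC25A for destruction, by -0.27 ± 0.035 (limma adjusted p = 0.00114). CDC25B changed by -0.13 ± 0.034 (limma adjusted p = 0.045), a call lost without any 1 of the 12 arrays, and CDC25C by 0.09 ± 0.055 (limma adjusted p = 0.393). Of the genes that stabilize or destroy cyclin E and CDC25A, 3 of 8 fell and 0 rose: USP28, CUL3 and CUL1, by 0.17, 0.16 and 0.15. The call of CUL1 was lost without any 1 of 7 arrays, with changes between -0.17 and -0.13 over the left-out arrays. That of USP28 was lost without the second untreated HCT116 array, the second treated SW48 array or the first untreated RKO array.

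Among RB and E2F genes, 5 of 10 fell and 2 rose. The activators E2F1, E2F2 and E2F3 fell by 0.51 ± 0.048, 0.54 ± 0.042 and 0.18 ± 0.047, and E2F8, a repressor, by 0.59 ± 0.043 (limma adjusted p = 0.000124, 3.98e-05, 0.0335 and 2.82e-05). RBL1, which encodes p107, fell by 0.28 ± 0.039 (limma adjusted p = 0.00148). E2F7, the other atypical repressor, rose by 0.74 ± 0.048 (limma adjusted p = 1.16e-05), by 0.78 in HCT116, 0.66 in SW48 and 0.78 in RKO. RBL2, which encodes p130, rose by 0.14 ± 0.037 (limma adjusted p = 0.0384). The call of E2F3 was lost without any 1 of 9 arrays and that of RBL2 without any 1 of 11. RB1 itself averaged 0.10 ± 0.040 (limma adjusted p = 0.158).

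Of the MuvB genes with MYBL2 and FOXM1, which switch cell cycle genes between repression and activity, 3 of 7 fell and 0 rose: MYBL2 by 0.32, LIN9 by 0.19 and FOXM1 by 0.14. The call of LIN9 was lost without any 1 of 8 arrays, with changes between -0.22 and -0.16 over the left-out arrays. That of FOXM1 was lost without the second untreated HCT116 array. Genes that license replication origins and fire them once CDK2 is active fell in 18 of 19 measured cases, with 16 or 17 called when 1 array was left out and a median of -0.311. The full list held 26 genes. By line, 12 of the 19 measured fell in HCT116, 14 in SW48 and 2 in RKO. Of all genes, 2.03%, 1.74% and 0.793% were called lower in these lines, and the difference between the list's counts was not tested. The HCT116 count was 5 or 6 without any 1 of its 4 arrays, and the SW48 count 9 without the first treated SW48 array. The RKO count was 0 without any 1 of its 4 arrays, 1 without any 1 HCT116 array and 11 with the intensity trend and robust prior. In RKO no gene of the cyclin and CDK, CDC25, MuvB or mitotic lists was called lower. With only 0.793% of all genes called lower in RKO, these counts of 0 say little about the lists. Under other settings up to 2 genes of the CDC25 list and 1 of the mitotic list were called lower there. On average over the lines, MCM10 fell by 0.65 ± 0.035, CDC6 by 0.48 ± 0.038 and GINS2 by 0.47 ± 0.036 (limma adjusted p = 2.51e-06, 3.98e-05 and 3.95e-05).

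Of the 23 S phase synthesis genes listed only 9 were measured, of which 6 fell and 2 rose. The largest changes were those of DTL (-0.57 ± 0.033), UHRF1 (-0.57 ± 0.038) and FEN1 (-0.32 ± 0.034), with limma adjusted p of 5.21e-06, 1.3e-05 and 0.000272. Of 13 mitotic genes 8 fell and 0 rose, with AURKA at -0.26, BUB1B at -0.24 and CCNF at -0.24. That count was 4 without the second untreated or the first treated HCT116 array, and 5 without the second untreated SW48, the second treated SW48 or the first untreated RKO array. In the MYC network 2 of 8 rose and 0 fell: the MYC antagonists MXD1, by 0.50 ± 0.053, and MXD4, by 0.30 ± 0.046 (limma adjusted p = 0.000256 and 0.00286). By line both were called in HCT116 (0.92 and 0.59) and neither in SW48 (0.25 and 0.04) or RKO (0.34 and 0.27). The limma F test did not call the effect on MXD1 or MXD4 different between the lines (adjusted p = 0.0864 and 0.132). MYC itself, named after its value was seen, fell in RKO by 0.36 (limma adjusted p = 0.0249), a call lost without any 1 of the 4 RKO arrays. Tested over all probe sets, the genes that fell numbered 1 of the 10 other cyclins and CDKs, 1 of the 7 MuvB genes and 5 of the 13 mitotic genes, and 1 of the 10 RB and E2F genes rose.

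**Figure D4:**
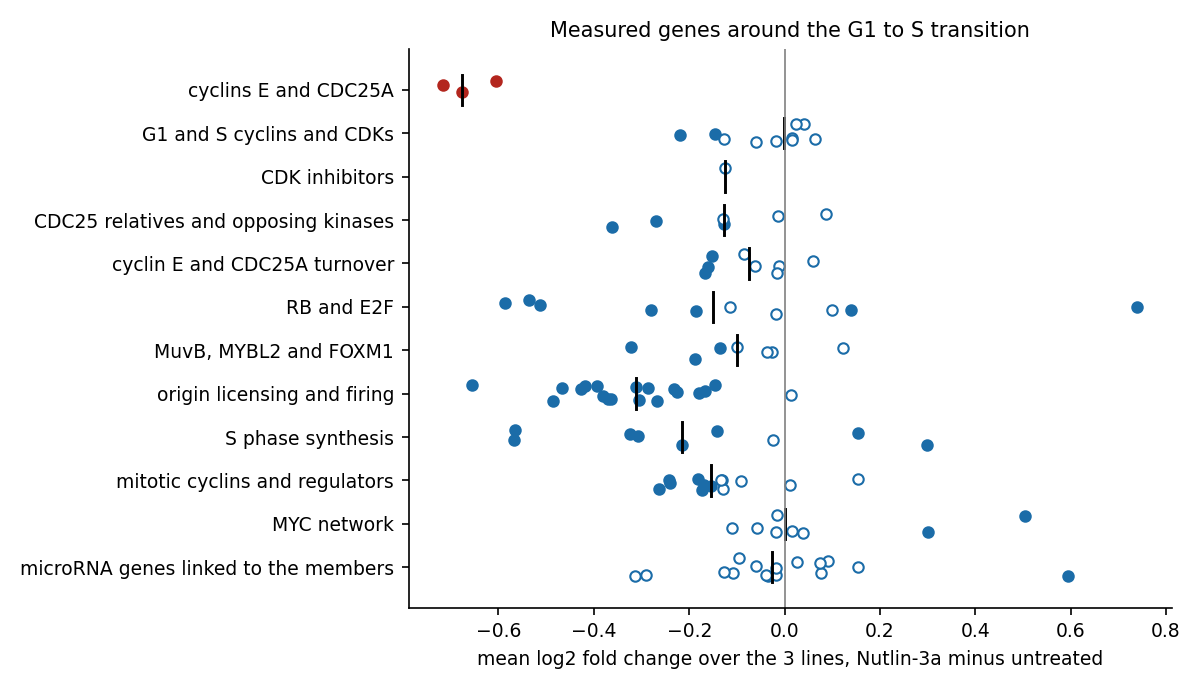
Average change with Nutlin-3a over the 3 lines (log2, horizontal axis) of the measured genes of each pathway list, with CCNE1, CCNE2 and CDC25A in a row of their own; filled points were called at a limma adjusted p under 0.05, and black bars are list medians. The 3 genes lie between -0.72 and -0.61, a range that 1 other gene drawn, MCM10 (-0.65), shares, and E2F7 (0.74) lies highest.

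MicroRNA genes linked to the 3 transcripts were read by probe sets that cover the precursor locus and can also read a host transcript, not the mature RNA. Of 16 measured, 1 rose and 0 fell on average, a share close to the 4.33% of all genes that rose. It was MIR34A, the gene of miR-34a and a known p53 target. In SW48 it read 4.28 and 4.40 untreated and 5.78 and 5.80 treated, a change of 1.45 ± 0.079 (limma adjusted p = 1.97e-05). In HCT116 it read 3.73 and 3.61 untreated and 3.78 and 3.85 treated, and in RKO 3.53 and 3.70 untreated and 3.85 and 3.77 treated. Its changes there were 0.14 and 0.19 (limma adjusted p = 0.364 and 0.261), all at signals below the array medians. Its limma F test between the lines gave an adjusted p of 0.0041. SW48 had the lowest CCNE2 both untreated and treated, and a relation between MIR34A and CCNE2 was not tested. The average call of MIR34A could not be made when genes below the median signal were left out.

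Of the 24 genes called lower in each line, a set that shrank whenever 1 array was left out, 18 had a promoter in the table, CCNE1 and CDC25A among them. The E2F letters were found in 4 of the 18 (22.2%), the CCAAT box in 7 (38.9%), the GC box in 14 (77.8%) and the E-box in 1 (5.56%). Among the 10568 measured genes with a promoter the shares were 3.84%, 34.2%, 58.1% and 7.97%. These shares are a description over 18 promoters, and none were computed for the smaller and larger sets that other settings gave. CCNE1 and CDC25A, each the other's closest gene by their changes, shared only the GC box among the motifs searched in their windows.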

How the data were processed

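The authors deposited a log2 expression value for each probe set on each array. They used the GCOS software, per the submitters' processing notes. The sources used here give neither its version nor the background correction, the normalization, the log base or the probe sets' build. Base 2 was read from the range of 2.22 to 13.45.

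Of 37270 probe sets, 14530 (39%) had a gene symbol in the platform annotation and 22740 none. The probe set with the highest mean represented each of 14118 genes, with no filter on dim signal. One model of 6 group means was fitted with limma 3.58.1 in R 4.3.3 on all 12 arrays (6 residual and 3.71 prior degrees of freedom) and tested on simulated data. P-values were adjusted by the Benjamini-Hochberg method over all genes, with calls at an adjusted p under 0.05. Correlations were 0.996 to 0.997 within groups and 0.957 to 0.965 between lines. Precision is limited by the number of arrays. No scan or slide batch could be tested.

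The genes, lists and tests were chosen with earlier results of these data known. CCNE1, CCNE2 and CDC25A were named always; of each list, up to 3 genes with the largest average change, and all measured CDK inhibitors, CDC25 relatives, RB and E2F genes where useful; and the 4 genes most like each member by each measure. Alternatives were the replicate block, quantile normalization, median centring, leaving out dim genes, averaging probe sets, all probe sets, an intensity trend with a robust prior, each line alone, a threshold of 0.01 and leaving out each array.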

Additional observations from a re-analysis of the deposited data

Results flagged for a closer look

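For 10 genes named beside the E cyclins and CDC25A, the Nutlin-3a effect differed between the 3 lines by the limma F test of equal effects, adjusted over all genes. That test called 0.503% of all genes, and the named genes were partly picked for large average changes. How these 10 calls fare under other settings or without 1 array is not given here. Groups of 2 arrays are too small for a test of single outlying arrays. The replication and S phase genes DTL, UHRF1, MCM10, CDC6 and GINS2 each had their lowest value in SW48 and the one closest to 0 in RKO. The adjusted p was 0.0103 for DTL (-0.64, -0.91 and -0.15 in HCT116, SW48 and RKO), 0.0378 for UHRF1 (-0.46, -0.94 and -0.29), 0.0424 for MCM10 (-0.62, -0.96 and -0.37), 0.0424 for CDC6 (-0.36, -0.85 and -0.24) and 0.04 for GINS2 (-0.42, -0.80 and -0.17), by limma in each case. MYBL2 had the same order (-0.25, -0.60 and -0.12), with a limma adjusted p of 0.0464. MCM2 and MCM5 of the origin list, named after their values were seen, also passed (limma adjusted p = 0.0437 and 0.0266). MCM2 had that order too (-0.25, -0.70 and -0.19), but MCM5 was closest to 0 in HCT116 (-0.13, -0.77 and -0.20).

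Of the p53 targets, GDF15 rose by 1.54, 2.59 and 1.33 (limma adjusted p = 0.00906) and TP53INP1 by 2.48, 1.73 and 1.90 (limma adjusted p = 0.0376). TP53I3, named after its values were seen, rose by 2.20, 1.10 and 1.38 (limma adjusted p = 0.0194). MIR34A changed by 0.14, 1.45 and 0.19 (limma adjusted p = 0.0041), and MIRLET7F1 by 0.41, -0.14 and -1.15 (limma adjusted p = 0.04). The probe sets of MIRLET7F1 in all 6 groups, and of MIR34A outside treated SW48, read below the array medians. CCNE1, CCNE2 and CDC25A themselves were not called by this test.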

How the results depend on the processing

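The 42 results on CCNE1, CCNE2 and CDC25A were compared with 849 alternative values: 790 kept direction and side of the threshold, 51 lost the call, 8 gained one and 0 changed sign. Unless given, the log2 value did not move and the cause of a changed adjusted p was not tested. All adjusted p are from limma.

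The replicate numbers did not pair the arrays (correlations of deviations 0.041 in HCT116, -0.031 in SW48 and -0.031 in RKO). With the replicate number as a block, calls were lost for the RKO effect on CCNE2 (-0.387, adjusted p = 0.113) and CDC25A (-0.3799, 0.109) and for CCNE1 in untreated RKO against HCT116 (-0.1706, 0.071). Over all probe sets the same 3 were lost, at 0.086, 0.0721 and 0.0834. Fitting lines alone, with fewer arrays, ended the RKO calls of CCNE1 (-0.4703, 0.109), CCNE2 and CDC25A (both 0.193) and the SW48 call of CDC25A (-0.6046, 0.0579). Quantile normalization gave -0.35 (0.0512) for CCNE2 in RKO, and median centring -0.1304 (0.115) for CCNE1 in untreated RKO against HCT116. A threshold of 0.01 ended those 3 calls and those of CCNE2 in untreated SW48 (-0.2686) and RKO (0.3023) against HCT116 and CDC25A in treated SW48 against HCT116 (-0.247).

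Without 1 array, values ranged from -0.4312 to -0.3428 for CCNE2 and -0.4182 to -0.3416 for CDC25A in RKO. They ranged from -0.1881 to -0.1531 for CCNE1 in untreated RKO against HCT116, -0.2869 to -0.2503 for CCNE2 in untreated SW48 against HCT116, 0.2581 to 0.3465 for CCNE2 in untreated RKO against HCT116 and -0.3564 to -0.1376 for CDC25A in treated SW48 against HCT116.

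An intensity trend with a robust prior gained the differences of RKO from HCT116 for CCNE1 (0.4262, 0.00405), CCNE2 (0.4327, 0.05) and CDC25A (0.4532, 0.0225), of RKO from SW48 for CCNE2 (0.553, 0.00854), and the F tests (0.00553, 0.0104 and 0.0323). Leaving out dim genes gained the first too (0.4262, 0.0402).

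Counts over all genes moved more. The 721, 441 and 285 calls in HCT116, SW48 and RKO ranged from 208 to 1228, 115 to 870 and 31 to 760 under other settings, and from 260 to 692, 188 to 394 and 97 to 226 without 1 array. The 1520 average calls ranged from 639 to 2123. The 30, 35 and 51 calls of differences in effect (SW48 minus HCT116, RKO minus HCT116, RKO minus SW48) ranged from 0 to 145, 0 to 114 and 1 to 157. Higher calls made up 60.3%, 44.2% and 60.7% of calls in HCT116, SW48 and RKO, and 54.3% to 72.3%, 34.6% to 65.2% and 40.9% to 100% under other settings. Leaving out an array of a line leaves that group 1 array, assumed to vary like the others.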
